A study of Mus musculus with 18 samples.

Results

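Ribosome footprints of the cerebellum were compared between mice that lack GTPBP2 and B6J control mice, across all genes. The members are the footprint libraries whose titles name the *Gtpbp2* or the wild-type genotype, which makes 6 of the 18 samples of the series and 6 of its 9 footprint libraries. The study examined how a pair of related translational GTPases, GTPBP1 and GTPBP2, act when ribosomes stall in neurons. It profiled RNA and footprints of the cerebellum of B6J mice and of mice without either GTPase, with 3 replicates per genotype and assay and 1 cerebellum per library. The mutant mice (B6J-*Gtpbp2*-/-) are homozygous for nmf205, an ENU-induced point mutation in *Gtpbp2* that acts as a null allele, on the C57BL/6J (B6J) strain. The controls are wild-type for *Gtpbp2* on the same strain. All mice, controls included, carry the B6J mutation in n-Tr20, a tRNA gene for arginine that reads AGA codons and is expressed in the nervous system, so each comparison is made on a background short of this tRNA. Mice were 3 weeks old, both sexes were used by the authors, and all 6 libraries carry the same batch label.

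Ribosome profiling counts the pieces of mRNA that ribosomes shield from a nuclease, so a gene's count reflects both the amount of its mRNA and the number of ribosomes on it. Cells answer uncharged tRNAs, stalled ribosomes and other stresses with the integrated stress response, in which kinases phosphorylate the initiation factor eIF2alpha, general initiation slows, and ATF4 and related transcription factors switch on genes of amino acid uptake, amino acid synthesis and tRNA charging. In the cerebellum, most neurons are granule neurons, small glutamatergic cells whose axons excite the much larger Purkinje cells.

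The libraries held 4428395, 4489970 and 6523974 footprints in B6J replicates 1, 2 and 3 and 6281637, 3630823 and 10442573 in B6J-*Gtpbp2*-/- replicates 1, 2 and 3. Levels are given as CPM, the footprint count of a gene scaled to a common library size after TMM normalisation, and differences as log2 fold changes of B6J-*Gtpbp2*-/- over B6J with their standard error (SE). The 10 genes with the most footprints took 4.60, 4.10 and 5.19% of the counts in B6J and 5.01, 6.02 and 5.96% in B6J-*Gtpbp2*-/-. B6J replicate 2 stood apart from the other libraries: on the first principal component, which held 41.8% of the variance, it lay at -0.81, against -0.15 and -0.03 for the other controls and 0.35, 0.31 and 0.33 for the mutants. *Ddx3y*, a gene of the Y chromosome, was at 85.1, 73.0 and 0.478 CPM in B6J and 2.50, 1.10 and 1.05 CPM in B6J-*Gtpbp2*-/-. Both B6J replicates 1 and 2 thus read as male, while B6J replicate 3 and the 3 mutant libraries read as female, and sex and genotype cannot be told apart in the comparison with the 2 male libraries.

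*Gtpbp2* itself, on chromosome 17 (46161032 to 46169370, GRCm38), was at 44.9, 36.3 and 38.6 CPM in B6J replicates 1, 2 and 3 and 28.9, 26.3 and 7.48 CPM in B6J-*Gtpbp2*-/- replicates 1, 2 and 3. Each mutant library lay below each control library, with the lowest level in replicate 3. The difference did not pass edgeR's quasi-likelihood test at a Benjamini-Hochberg adjusted p of 0.05 (log2 fold change -0.97, SE 0.44, adjusted p = 0.321). Over 16 alternative settings, listed with the processing, the log2 fold change of *Gtpbp2* ran from -1.36 to -0.53. *Gtpbp1*, its paralog, was at 73.9, 117 and 85.1 CPM in B6J and 79.5, 66.6 and 61.6 CPM in B6J-*Gtpbp2*-/-. The levels of the genotypes overlapped, and the difference did not pass (log2 fold change -0.41, SE 0.19, adjusted p = 0.288).

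The libraries carried the genes that define cerebellar tissue. Purkinje cell genes were abundant in each library, with *Calb1*, a calcium-binding protein, at 2147, 1017 and 2900.0 CPM in B6J and 3536, 3082 and 2985 CPM in B6J-*Gtpbp2*-/-. *Fat2*, a cadherin of granule neurons, was at 1696, 1851 and 1458 CPM in B6J and 980.1, 1097 and 644 CPM in B6J-*Gtpbp2*-/-. Tissue from beside the cerebellum was uneven. *Ttr*, the thyroid hormone carrier that choroid plexus makes in large amounts, was at 5459, 3637 and 48.5 CPM in B6J and 456, 9265 and 9373 CPM in B6J-*Gtpbp2*-/-, low in B6J replicate 3 and B6J-*Gtpbp2*-/- replicate 1 and high in the other libraries of both genotypes.

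At an adjusted p of at most 0.05, 406 of 13797 genes tested differed (2.94%). Of these, 176 had more footprints in B6J-*Gtpbp2*-/- (1.28% of the genes tested) and 230 had fewer (1.67%). Of the 176, 7 met the count filter only through the mutants. Over all genes tested, the median log2 fold change was 0.01 and 50.6% of genes lay above 0. The gains were the larger changes: 121 of the 176 genes were at or above a log2 fold change of 1, and 88 of the 230 were at or below -1. The libraries of the genotypes did not overlap for any of the 406 genes, and for 3115 of 13797 genes tested (22.6%). Among the genes with more footprints, 163 of 173 with RNA counts also had a higher RNA estimate in B6J-*Gtpbp2*-/- (median log2 fold change 0.77), and among those with fewer, 215 of 230 had a lower one (median -0.50). The number of genes past the threshold was 186 without B6J replicate 2, 619 without B6J replicate 3, 106 without B6J-*Gtpbp2*-/- replicate 1 and 151 without B6J-*Gtpbp2*-/- replicate 2. A fit with a term for sex, chosen after seeing the data, rests the genotype effect on B6J replicate 3 alone and gave 45 genes, of which 44 are among the 406.

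Among the 15 genes with more footprints and the smallest p, *Slc7a3*, a carrier of arginine and lysine, was at 11.7, 21.4 and 13.9 CPM in B6J replicates 1, 2 and 3 and 179, 162 and 179 CPM in B6J-*Gtpbp2*-/- replicates 1, 2 and 3. It was low in all controls and near the same high level in all mutants (11.1-fold, log2 fold change 3.47, SE 0.22, adjusted p = 6.21e-07). *Gdf15*, a secreted stress cytokine, was at 1.12, 1.99 and 1.28 CPM in B6J and 39.7, 43.8 and 66.1 CPM in B6J-*Gtpbp2*-/-, a 34.1-fold gain (log2 fold change 5.09, SE 0.33, adjusted p = 6.21e-07). *Sesn2*, which restrains the growth kinase complex mTORC1 when leucine is short, was at 14.4, 20.6 and 23.0 CPM in B6J and 92.4, 111 and 108 CPM in B6J-*Gtpbp2*-/-. The groups lay far apart (5.35-fold, log2 fold change 2.42, SE 0.20, adjusted p = 1.77e-05).

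**Figure D1:**
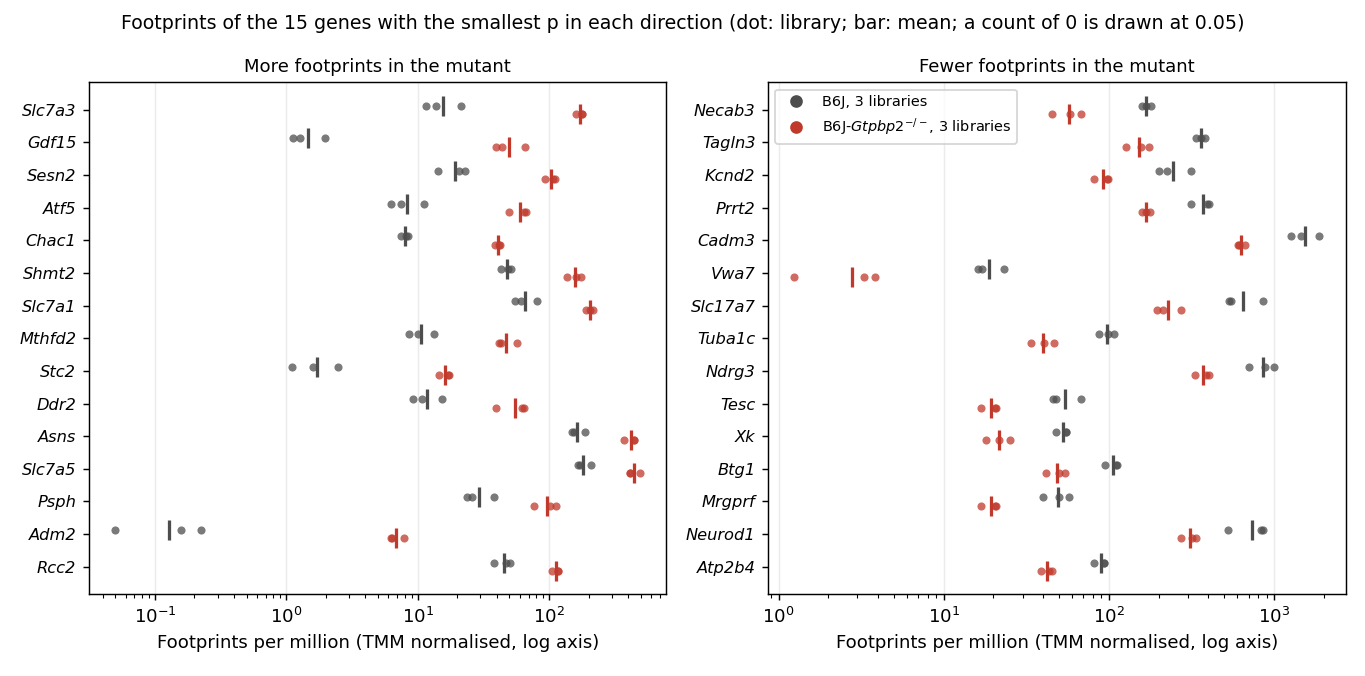
Footprint CPM (log axis) of the 15 genes with the smallest p in each direction, with a dot for each of 3 B6J (grey) and 3 B6J-*Gtpbp2*-/- (red) libraries and a bar for each mean; a count of 0 is drawn at 0.05. *Slc7a3* lies between 11.7 and 21.4 CPM in B6J and between 162 and 179 CPM in the mutant. No gene shown has overlapping groups, as is so for all 406 genes past the threshold and for 22.6% of genes tested. *Adm2* met the count filter only through the mutants.

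Of the core of the integrated stress response, 7 of 16 genes tested rose and the others did not pass, with a median log2 fold change of 1.54 over the list. The members that rose are downstream factors and feedback regulators. *Atf5*, a transcription factor of the ATF4 family, was at 6.29, 11.3 and 7.49 CPM in B6J and 64.1, 49.3 and 66.6 CPM in B6J-*Gtpbp2*-/- (log2 fold change 2.85, SE 0.24, adjusted p = 1.77e-05). *Chac1*, which breaks down glutathione, was at 7.41, 8.18 and 8.45 CPM in B6J and 38.8, 41.9 and 42.3 CPM in B6J-*Gtpbp2*-/- (log2 fold change 2.35, SE 0.22, adjusted p = 4.53e-05). Both genes were low in all 3 controls and high in all 3 mutants. *Ppp1r15a*, the phosphatase subunit that reverses eIF2alpha phosphorylation, rose from 3.45 ± 0.670 to 13.6 ± 1.07 CPM (mean ± SD, n = 3, log2 fold change 1.97, SE 0.32, adjusted p = 0.00429). *Atf4* rose by 1.59 and *Cebpb*, its partner factor, by 2.28 on the log2 scale (adjusted p = 0.0184 and 0.0175). The stress protein *Nupr1* and the pseudokinase *Trib3* rose by 1.65 and 3.18. *Ddit3* (CHOP) was at 3.37, 5.97 and 2.55 CPM in B6J and 7.98, 8.22 and 17.7 CPM in B6J-*Gtpbp2*-/-, higher in each mutant without passing (log2 fold change 1.56, SE 0.42, adjusted p = 0.0624). A reading frame of 34 codons that the annotation lists as a gene under the same symbol, inside the span of *Ddit3* on the same strand and with no RNA count in any library, had a log2 fold change of 1.44 (adjusted p = 0.0120). The 4 kinases of eIF2alpha did not pass: *Eif2ak1* had a log2 fold change of -0.12, *Eif2ak2* of 0.32, *Eif2ak3* of -0.35 and *Eif2ak4* of 0.16. The number that rose was 3 without B6J replicate 1 and 3 without B6J-*Gtpbp2*-/- replicate 1. *Atf4* was not past the threshold without B6J replicate 1 (0.0766) or B6J-*Gtpbp2*-/- replicate 1 (0.0818) or 3 (0.0537), *Cebpb* without B6J replicate 1 (0.0926) or B6J-*Gtpbp2*-/- replicate 1 (0.0786) or 2 (0.0556), *Nupr1* without B6J replicate 1 (0.0597) or B6J-*Gtpbp2*-/- replicate 1 (0.0913) and *Trib3* without B6J replicate 1 (0.0739) or B6J-*Gtpbp2*-/- replicate 1 (0.0736) or 2 (0.0831), with the adjusted p in brackets.

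Among amino acid transporters, 5 of 16 tested rose and the others did not pass (median log2 fold change 0.46). *Slc7a1*, the more widely expressed relative of *Slc7a3*, was at 61.5, 55.3 and 81.1 CPM in B6J and 215, 204 and 191 CPM in B6J-*Gtpbp2*-/- (log2 fold change 1.62, SE 0.17, adjusted p = 1.92e-04). *Slc7a5*, the light chain of the LAT1 carrier for large neutral amino acids, was at 166, 174 and 208 CPM in B6J and 416, 412 and 493 CPM in B6J-*Gtpbp2*-/- (log2 fold change 1.27, SE 0.16, adjusted p = 7.28e-04). In both, each mutant library exceeded each control library. *Slc3a2*, the heavy chain that LAT1 needs at the membrane, rose by 0.85 on the log2 scale, and *Slc1a4*, a carrier of serine and alanine, by 0.76 (adjusted p = 0.00947 and 0.0442). The cystine carrier *Slc7a11* (0.20) and the glycine carrier *Slc6a9* (-0.03) did not pass. The number that rose was 3 without B6J replicate 1 and 3 without B6J-*Gtpbp2*-/- replicate 1, and 1 transporter fell without B6J replicate 1. *Slc3a2* was not past the threshold without B6J replicate 1 (0.0635) or B6J-*Gtpbp2*-/- replicate 1 (0.0593), nor *Slc1a4* without B6J replicate 1 (0.167) or 2 (0.110) or B6J-*Gtpbp2*-/- replicate 1 (0.151), 2 (0.0708) or 3 (0.132), with the adjusted p in brackets.

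Enzymes of serine synthesis and of the folate cycle that passes serine carbon on rose in 7 of 15 cases (median 0.93). The 3 enzymes that make serine from a glycolytic intermediate, *Phgdh*, *Psat1* and *Psph*, rose by 0.97, 1.16 and 1.73 on the log2 scale (adjusted p = 0.0181, 0.00378 and 7.73e-04). *Psph* was at 25.8, 23.9 and 38.1 CPM in B6J and 101, 76.7 and 114 CPM in B6J-*Gtpbp2*-/-. In the folate cycle, 4 mitochondrial enzymes rose. *Shmt2*, which takes the carbon from serine, was at 43.3, 48.6 and 51.0 CPM in B6J and 175, 159.7 and 137 CPM in B6J-*Gtpbp2*-/- (log2 fold change 1.72, SE 0.17, adjusted p = 6.25e-05). *Mthfd2*, the next enzyme, was at 13.3, 8.62 and 10.04 CPM in B6J and 57.1, 41.6 and 43.1 CPM in B6J-*Gtpbp2*-/- (log2 fold change 2.15, SE 0.23, adjusted p = 2.26e-04). *Aldh1l2* was at 5.39, 10.4 and 7.17 CPM in B6J and 82.1, 81.3 and 28.3 CPM in B6J-*Gtpbp2*-/-, with B6J-*Gtpbp2*-/- replicate 3 below the other mutants and above all controls (log2 fold change 3.05, SE 0.46, adjusted p = 0.0120). *Mthfd1l* rose by 0.93 (adjusted p = 0.0333). The cytosolic counterparts *Shmt1* (0.39), *Mthfd1* (0.22) and *Aldh1l1* (0.00) did not pass. The number that rose was 4 without B6J replicate 1 and 4 without B6J replicate 2. *Aldh1l2* was not past the threshold without B6J replicate 1 (0.0512), 2 (0.107) or 3 (0.0684), *Phgdh* without B6J replicate 1 (0.0802) or 2 (0.0587) or B6J-*Gtpbp2*-/- replicate 1 (0.0955) or 2 (0.0620) and *Mthfd1l* without B6J replicate 1 (0.129) or 2 (0.0941) or B6J-*Gtpbp2*-/- replicate 1 (0.142) or 2 (0.162), with the adjusted p in brackets.

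Of the enzymes that make other amino acids or glutathione, 4 of 14 rose (median 0.57, 0.28 without B6J-*Gtpbp2*-/- replicate 3). *Asns*, asparagine synthetase, was at 150.3, 154 and 189 CPM in B6J and 442, 370.3 and 446 CPM in B6J-*Gtpbp2*-/- (log2 fold change 1.35, SE 0.16, adjusted p = 4.27e-04). *Pycr1*, which completes proline synthesis, was at 2.02, 1.55 and 2.07 CPM in B6J and 12.8, 10.7 and 9.49 CPM in B6J-*Gtpbp2*-/- (log2 fold change 2.52, SE 0.37, adjusted p = 0.00244), and *Aldh18a1*, which starts it, rose by 1.36 on the log2 scale (adjusted p = 0.00210). The groups did not overlap for any of these 3 genes. *Pck2*, the mitochondrial form of a gluconeogenic enzyme, rose by 0.73 (adjusted p = 0.0382) and was not past the threshold without B6J replicate 1 (0.141) or 2 (0.0937) or B6J-*Gtpbp2*-/- replicate 1 (0.155) or 2 (0.143), with the adjusted p in brackets. The enzymes of glutathione synthesis, *Gclc* (-0.06), *Gclm* (-0.17) and *Gss* (-0.02), did not pass. DESeq2 called 7 of the list.

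Cytosolic aminoacyl-tRNA synthetases, which load tRNAs with their amino acids, rose in 11 of 20 cases (median 0.73), while the 17 mitochondrial synthetases had a median of 0.01. *Yars*, for tyrosine, was at 136, 120.0 and 161 CPM in B6J and 355, 291 and 289 CPM in B6J-*Gtpbp2*-/- (log2 fold change 1.16, SE 0.16, adjusted p = 0.00160). *Lars*, for leucine, was at 57.9, 46.6 and 58.8 CPM in B6J and 163, 134 and 101 CPM in B6J-*Gtpbp2*-/- (log2 fold change 1.28, SE 0.19, adjusted p = 0.00269). In both, the lowest mutant lay above the highest control. *Nars*, *Gars*, *Iars* and *Cars* rose by 1.01, 0.96, 1.03 and 1.10 on the log2 scale. *Rars*, which charges the arginine tRNAs, did not pass (log2 fold change 0.44, SE 0.22, adjusted p = 0.316). Lysine and glutamine enzymes *Kars* (-0.15) and *Qars* (0.00) did not pass either. None of the mitochondrial synthetases passed edgeR's test, with 1 with more and 1 with fewer footprints at an unadjusted p under 0.05 and none past the threshold by DESeq2 or limma-voom. *Iars2*, the mitochondrial enzyme for isoleucine, was at 78.2, 70.3 and 88.2 CPM in B6J and 90.9, 86.6 and 78.7 CPM in B6J-*Gtpbp2*-/-, with overlapping groups. The number of cytosolic synthetases that rose was 4 without B6J-*Gtpbp2*-/- replicate 1, where *Iars* and *Cars* were among those not past the threshold (adjusted p = 0.0511 and 0.0550).

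Of the other stress effectors, 8 of 12 rose (median 1.84), leaving aside *Adm2* and *Fgf21*. Those genes passed the test too, but they met the count filter only through the 3 mutant libraries. *Stc2*, a secreted glycoprotein, was at 2.47, 1.11 and 1.59 CPM in B6J and 17.2, 14.5 and 17.1 CPM in B6J-*Gtpbp2*-/- (log2 fold change 3.24, SE 0.36, adjusted p = 2.81e-04). *Ddr2*, a receptor for collagen, was at 9.21, 15.3 and 10.8 CPM in B6J and 64.0, 61.9 and 39.5 CPM in B6J-*Gtpbp2*-/- (log2 fold change 2.22, SE 0.25, adjusted p = 2.81e-04). Each mutant exceeded each control in both. *Adm2*, a peptide hormone, had 2 footprints over the 3 controls and 135 over the 3 mutants, a depth-corrected ratio of 51.2 with a 95% counting interval from 13.9 to 427. Without any of the mutant libraries it had too few counts to be tested, while the other 14 of the 15 genes with the smallest p and more footprints passed with each library left out in turn. With the term for sex, *Adm2* and *Rcc2* were not past the threshold (adjusted p = 0.0585 and 0.0585). *Trim66*, a nuclear protein of the tripartite motif family, was at 19.3, 24.3 and 14.2 CPM in B6J and 65.5, 68.2 and 52.3 CPM in B6J-*Gtpbp2*-/- (log2 fold change 1.69, SE 0.22, adjusted p = 9.55e-04). *Eif4ebp1*, which binds the cap-binding factor eIF4E, rose by 3.05 and *Ddit4*, an inhibitor of mTORC1, by 0.73 on the log2 scale (adjusted p = 0.00304 and 0.0479). *Ddit4* was not past the threshold without B6J replicate 1 (0.161) or 2 (0.180) or B6J-*Gtpbp2*-/- replicate 1 (0.0859), 2 (0.0895) or 3 (0.171), with the adjusted p in brackets. *Rcc2*, a regulator of mitosis outside the lists, was at 46.9, 38.2 and 50.9 CPM in B6J and 117, 118 and 105 CPM in B6J-*Gtpbp2*-/- (log2 fold change 1.32, SE 0.17, adjusted p = 9.27e-04).

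With the term for sex, 3 of the core stress response genes, 3 transporters, 3 serine and folate enzymes, 1 enzyme of the other amino acids and 5 stress effectors passed with more footprints, and no cytosolic synthetase did. The list medians in that fit were 1.67, 0.50, 0.78, 0.58, 1.88 and, for the synthetases, 0.65. *Slc7a3*, *Gdf15*, *Sesn2*, *Atf5* and *Chac1* passed in it, with adjusted p = 9.50e-05, 1.52e-04, 0.00408, 0.00256 and 0.00931. Of the lists and markers that follow, genes past the threshold in that fit were left in granule neuron markers, vesicle release, potassium channels and histones, and in no other.

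**Figure D2:**
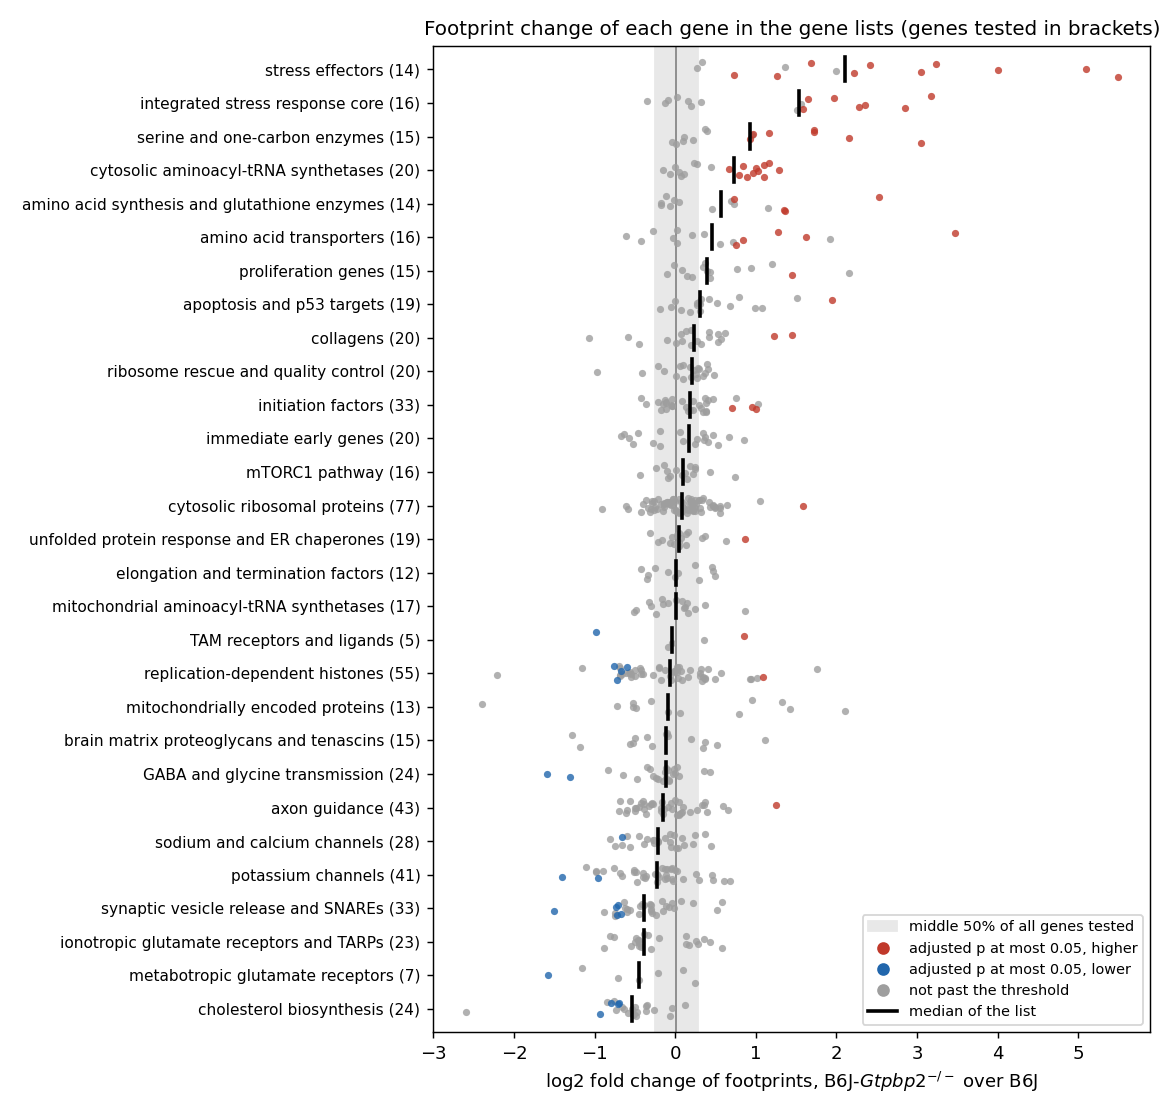
Log2 fold change of footprints, B6J-*Gtpbp2*-/- over B6J, of each gene tested in the 29 gene lists, with the list median as a black bar and the middle 50% of all genes tested shaded. Medians run from -0.53 for cholesterol biosynthesis to 2.11 for the stress effectors as drawn, against 0.01 for all genes tested. The stress effectors drawn include *Adm2* and *Fgf21*, which met the count filter only through the mutants. Without those genes the median of the list is 1.84. That list was drawn from genes named as stress responsive in the study or in the literature.

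Of the factors that rescue stalled ribosomes or clear their products, none of 20 passed edgeR's test, with 2 with more and 1 with fewer footprints at an unadjusted p under 0.05 and none past the threshold by DESeq2 or limma-voom. Among them, *Pelo*, which splits stalled ribosomes, had a log2 fold change of 0.19, its partner *Hbs1l* of -0.14 and the ubiquitin ligase *Ltn1* of 0.23. *Gtpbp2* itself is on the list and had its lowest log2 fold change (-0.97). The median over the list was 0.21, and 0.10 to 0.25 with 1 library left out. *Rack1*, a ribosomal scaffold, was at 198, 184 and 244 CPM in B6J and 213, 231 and 208 CPM in B6J-*Gtpbp2*-/-. The groups overlapped. Of the elongation and termination factors, none of 12 passed edgeR's test (median 0.01), with 2 with more and 1 with fewer footprints at an unadjusted p under 0.05 and none past the threshold by DESeq2 or limma-voom. *Eef2*, the translocase, was at 875, 922 and 1024 CPM in B6J and 978, 966 and 700.0 CPM in B6J-*Gtpbp2*-/-, with overlapping groups, and *Eef1a2*, which delivers tRNAs in neurons, at 1824, 2240.5 and 2368 CPM in B6J and 1707, 1572 and 1754 CPM in B6J-*Gtpbp2*-/-, lower in each mutant without passing (log2 fold change -0.35, adjusted p = 0.295). Of initiation factors, 3 of 33 rose (median 0.18): *Eif2s2*, the beta subunit of eIF2, by 1.01, and the eIF3 subunits *Eif3c* and *Eif3a* by 0.95 and 0.71 on the log2 scale (adjusted p = 0.00600, 0.00865 and 0.0493). That number was 1 without B6J-*Gtpbp2*-/- replicate 1. *Eif3c* was not past the threshold without B6J-*Gtpbp2*-/- replicate 1 (0.0746), nor *Eif3a* without B6J replicate 1 (0.104) or 2 (0.184) or B6J-*Gtpbp2*-/- replicate 1 (0.260), 2 (0.0714) or 3 (0.0824).

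Of cytosolic ribosomal proteins, 1 of 77 rose (median 0.08, 46 of 77 above 0), against 1.28% of all genes tested. It was *Rpl41*, whose coding sequence is the shortest of the ribosomal proteins, at 43.1, 34.5 and 63.3 CPM in B6J and 183, 102 and 138 CPM in B6J-*Gtpbp2*-/- (log2 fold change 1.58, SE 0.25, adjusted p = 0.00610), with an RNA log2 fold change of -0.07. Its mutant libraries all exceeded its controls, and the list held 5 genes that rose and 1 that fell without B6J replicate 3, and 2 that rose without B6J-*Gtpbp2*-/- replicate 3 or by DESeq2. Of the targets of endoplasmic reticulum stress, 1 of 19 rose (median 0.04): *Herpud1*, which helps to degrade proteins of that compartment, by 0.86 (adjusted p = 0.0316). *Herpud1* was not past the threshold without B6J replicate 1 (0.135) or 2 (0.141) or B6J-*Gtpbp2*-/- replicate 1 (0.0923) or 3 (0.1002), with the adjusted p in brackets. The chaperone *Hspa5* had a log2 fold change of 0.33 and did not pass. Of the mTORC1 pathway, none of 16 passed edgeR's test (median 0.10), with 2 with more and 0 with fewer footprints at an unadjusted p under 0.05 and none past the threshold by DESeq2 or limma-voom. The regulators *Sesn2* and *Ddit4* and the target *Eif4ebp1*, which rose, were counted with the stress effectors and not in this list. *Mtor*, the kinase, was at 247, 231 and 247 CPM in B6J and 242, 301 and 224 CPM in B6J-*Gtpbp2*-/-, with overlapping groups.

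Cholesterol synthesis lay lower as a list. Of its genes 4 of 24 fell, 23 of 24 had a log2 fold change below 0, and the median was -0.53. *Dhcr7*, the enzyme of the last step, was at 113, 155 and 158 CPM in B6J and 67.7, 88.2 and 68.1 CPM in B6J-*Gtpbp2*-/-. *Srebf2*, the transcription factor that drives the pathway, was at 184, 227 and 197 CPM in B6J and 108, 137 and 105 CPM in B6J-*Gtpbp2*-/-. The mutants lay below the controls in both, with log2 fold changes of -0.93 and -0.80 (SE 0.18 and 0.16, adjusted p = 0.00985 and 0.0134). *Sqle* and *Sc5d* had log2 fold changes of -0.70 and -0.71 (adjusted p = 0.0277 and 0.0447). The number that fell was 1 without B6J replicate 2, 0 without B6J-*Gtpbp2*-/- replicate 1, 2 without B6J-*Gtpbp2*-/- replicate 2 and 2 without B6J-*Gtpbp2*-/- replicate 3. *Dhcr7* was not past the threshold without B6J-*Gtpbp2*-/- replicate 1 (0.0923), *Srebf2* without B6J replicate 2 (0.0587) or B6J-*Gtpbp2*-/- replicate 1 (0.115), *Sqle* without B6J replicate 1 (0.0760) or 2 (0.0609) or B6J-*Gtpbp2*-/- replicate 1 (0.101), 2 (0.0736) or 3 (0.0996) and *Sc5d* without B6J replicate 1 (0.0511) or 2 (0.190) or B6J-*Gtpbp2*-/- replicate 1 (0.115), 2 (0.194) or 3 (0.0924). With the term for sex none of the list passed (median -0.75, adjusted p = 0.0585 for *Dhcr7* and 0.175 for *Srebf2*).

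Among the 15 genes with fewer footprints and the smallest p, *Necab3*, a neuronal calcium-binding protein, was at 158, 180.4 and 167 CPM in B6J replicates 1, 2 and 3 and 68.0, 58.1 and 45.1 CPM in B6J-*Gtpbp2*-/- replicates 1, 2 and 3 (log2 fold change -1.56, SE 0.18, adjusted p = 2.81e-04). *Cadm3*, a synaptic adhesion molecule, was at 1270.2, 1877 and 1456 CPM in B6J and 665, 608 and 617 CPM in B6J-*Gtpbp2*-/- (log2 fold change -1.28, SE 0.18, adjusted p = 0.00133). *Prrt2*, a presynaptic protein, was at 315, 405 and 391 CPM in B6J and 177, 158 and 167 CPM in B6J-*Gtpbp2*-/- (log2 fold change -1.15, SE 0.15, adjusted p = 0.00121). In these 3 genes each mutant lay below each control. *Tagln3*, an actin-binding protein of neurons, and *Tuba1c*, an alpha-tubulin, had log2 fold changes of -1.23 and -1.30. *Vwa7* was at 17.1, 23.2 and 16.1 CPM in B6J and 3.28, 3.83 and 1.25 CPM in B6J-*Gtpbp2*-/-, the steepest loss among the 15 (log2 fold change -2.85, SE 0.39). *Ndrg3*, *Xk*, *Mrgprf*, *Tesc*, *Btg1* and *Atp2b4*, a calcium pump of the plasma membrane, completed the 15 genes besides those named next, with log2 fold changes between -1.48 and -1.07. All 15 passed with each of the 6 libraries left out in turn. With the term for sex, *Tesc*, *Btg1* and *Atp2b4* did not (adjusted p = 0.0551, 0.0983 and 0.107).

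Granule neuron markers fell in 7 of 16 cases, with 15 of 16 below 0 and a median of -0.85. Summed over the 16 markers, their level was 7352, 10331 and 8064 CPM in B6J and 5675, 5072 and 4656 CPM in B6J-*Gtpbp2*-/-, with no overlap, and *Fat2* was the most abundant. No marker was at 0. *Slc17a7*, the vesicular glutamate transporter of granule neurons, was at 529.6, 859.6 and 548 CPM in B6J and 273, 213 and 196 CPM in B6J-*Gtpbp2*-/- (log2 fold change -1.50, SE 0.20, adjusted p = 0.00133). *Neurod1*, a transcription factor of their differentiation, was at 524, 857 and 839 CPM in B6J and 335, 272 and 317 CPM in B6J-*Gtpbp2*-/- (log2 fold change -1.26, SE 0.19, adjusted p = 0.00291). *Gabra6*, a GABA receptor subunit that in the cerebellum belongs to granule neurons, was at 681, 1077 and 731 CPM in B6J and 400.1, 264 and 343 CPM in B6J-*Gtpbp2*-/- (log2 fold change -1.30, SE 0.20, adjusted p = 0.00378). B6J replicate 2 was the highest library for each of these 3 genes, and the mutants lay below all controls. *Cbln1*, a synapse organiser released by granule axons, *Zic1* and *Cbln3* had log2 fold changes of -1.28, -1.03 and -1.17, and *Fat2* of -0.88 (adjusted p = 0.00395, 0.00547, 0.0141 and 0.0270). *Calb2*, also made by granule neurons, did not pass (0.35). The number that fell was 4 without B6J-*Gtpbp2*-/- replicate 1 and 4 without B6J-*Gtpbp2*-/- replicate 2, and 2 with the term for sex. The median was -0.54 without B6J replicate 2 and -0.48 with that term. *Fat2* was not past the threshold without B6J replicate 1 (0.0926) or 2 (0.101) or B6J-*Gtpbp2*-/- replicate 1 (0.115), 2 (0.0504) or 3 (0.0838), nor were *Cbln3* without B6J-*Gtpbp2*-/- replicate 1 (0.0795), 2 (0.0852) or 3 (0.0504) and *Zic1* without B6J-*Gtpbp2*-/- replicate 1 (0.0559) or 2 (0.05003), with the adjusted p in brackets. The median RNA log2 fold change of the list was -0.49. In bulk tissue, fewer cells of a type and less RNA per cell cannot be told apart. The part of fewer ribosomes per mRNA was not tested for the list.

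Of genes of vesicle release, 5 of 33 fell, and 29 of 33 lay below 0 (median -0.38). Besides *Slc17a7*, these were the vesicle proteins *Syn1* (-0.74) and *Syt1* (-0.71), and *Napa* (-0.67) and *Cplx2* (-0.73), which act on the SNARE fusion machinery. *Syt1*, the calcium sensor of release, was at 395, 491 and 461 CPM in B6J and 261, 246 and 317 CPM in B6J-*Gtpbp2*-/- (adjusted p = 0.0267). The number was 2 without B6J replicate 2, 1 without B6J-*Gtpbp2*-/- replicate 1, 2 without B6J-*Gtpbp2*-/- replicate 2 and 2 without B6J-*Gtpbp2*-/- replicate 3. DESeq2 called 11 of the list and edgeR without the count filter 10, and the term for sex left 1. *Syn1* was not past the threshold without B6J-*Gtpbp2*-/- replicate 1 (0.141), 2 (0.0556) or 3 (0.0562), *Syt1* without B6J replicate 2 (0.0943) or B6J-*Gtpbp2*-/- replicate 1 (0.151) or 2 (0.155), *Napa* with any of the 6 libraries left out (adjusted p between 0.0594 and 0.172) and *Cplx2* without B6J replicate 2 (0.156) or 3 (0.0646) or B6J-*Gtpbp2*-/- replicate 1 (0.0852), 2 (0.187) or 3 (0.0944), with the adjusted p in brackets. The part of the granule neuron markers in this result was not tested.

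Of genes of GABA and glycine transmission, 2 of 24 fell (median -0.12, -0.22 to -0.06 with 1 library left out). They were *Gabra6* and *Gabrd*, which join in the extrasynaptic receptor of granule neurons. *Gabrd* was at 279.9, 522 and 273 CPM in B6J and 130.4, 105 and 122 CPM in B6J-*Gtpbp2*-/- (log2 fold change -1.59, SE 0.24, adjusted p = 0.00441), lower in all mutants. Of potassium channels, 2 of 41 fell (median -0.22, -0.37 without B6J-*Gtpbp2*-/- replicate 3). *Kcnd2*, an A-type channel, was at 199.7, 313 and 224 CPM in B6J and 98.7, 81.3 and 96.8 CPM in B6J-*Gtpbp2*-/- (log2 fold change -1.41, SE 0.18, adjusted p = 9.52e-04), and *Kcnc1*, a channel of fast-firing neurons, had a log2 fold change of -0.95 (adjusted p = 0.0440). The number was 1 without B6J replicate 2, 4 without B6J replicate 3, 1 without B6J-*Gtpbp2*-/- replicate 1, 1 without B6J-*Gtpbp2*-/- replicate 2 and 1 without B6J-*Gtpbp2*-/- replicate 3, and *Kcnc1* was not past the threshold without B6J replicate 2 (0.121) or B6J-*Gtpbp2*-/- replicate 1 (0.157), 2 (0.0963) or 3 (0.116). Without B6J replicate 3, 1 potassium channel rose. DESeq2 called 4 lower and limma-voom 1. Over 28 sodium and calcium channel subunits tested, the median was -0.22.

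Of metabotropic glutamate receptors, 1 of 7 fell (median -0.45): *Grm4*, a presynaptic receptor of granule axons, at 443, 713 and 373 CPM in B6J and 175, 228 and 110.1 CPM in B6J-*Gtpbp2*-/- (log2 fold change -1.58, SE 0.31, adjusted p = 0.0382). The mutants lay below all controls, and *Grm4* was not past the threshold without B6J replicate 1 (0.0799) or 2 (0.0648) or B6J-*Gtpbp2*-/- replicate 1 (0.139), while the list held 2 such genes without B6J replicate 3 and 3 by DESeq2. Of ionotropic receptor subunits and their auxiliary proteins, none of 23 passed edgeR's test (median -0.39, -0.14 with the term for sex), with 2 with more and 8 with fewer footprints at an unadjusted p under 0.05 and none past the threshold by DESeq2 or limma-voom, while 1 without B6J replicate 3 passed with fewer. *Grin1*, the obligatory NMDA receptor subunit, was at 873, 865 and 875 CPM in B6J and 724, 839 and 701 CPM in B6J-*Gtpbp2*-/-, lower in each mutant without passing (log2 fold change -0.21, adjusted p = 0.534).

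Of microglial genes, 4 of 14 rose and all 14 lay above 0 (median 1.10), leaving aside *Cst7*, which met the count filter only through the mutants. Without B6J-*Gtpbp2*-/- replicate 3 that median was 0.60. The summed level of the 16 markers was 411, 440.4 and 368 CPM in B6J and 629, 557 and 940.4 CPM in B6J-*Gtpbp2*-/-, highest in B6J-*Gtpbp2*-/- replicate 3, with no overlap. *Itgam* was at 0 in 4 libraries and *Cst7* in B6J replicates 1 and 3. *C1qa*, a chain of the complement protein C1q, was at 29.2, 23.7 and 23.8 CPM in B6J and 53.2, 47.4 and 87.2 CPM in B6J-*Gtpbp2*-/- (log2 fold change 1.31, SE 0.23, adjusted p = 0.00683), and *C1qb* was at 20.7, 28.3 and 26.3 CPM in B6J and 51.1, 46.6 and 86.6 CPM in B6J-*Gtpbp2*-/- (log2 fold change 1.30, SE 0.24, adjusted p = 0.00833). *Trem2*, a receptor for lipids, and *Lpl*, a lipase, both linked to microglia that take up debris, rose by 1.38 and 1.48 on the log2 scale. *P2ry12* (0.23) and *Tmem119* (0.52), which mark resting microglia, did not pass. The number that rose was 2 without B6J replicate 1, 2 without B6J replicate 2, 2 without B6J-*Gtpbp2*-/- replicate 1, 2 without B6J-*Gtpbp2*-/- replicate 2 and 2 without B6J-*Gtpbp2*-/- replicate 3. *C1qb* was not past the threshold without B6J replicate 1 (0.0501), *Trem2* without B6J replicate 2 (0.117) or 3 (0.0539) or B6J-*Gtpbp2*-/- replicate 1 (0.0774), 2 (0.0568) or 3 (0.156) and *Lpl* without B6J replicate 1 (0.0532) or 2 (0.0987) or B6J-*Gtpbp2*-/- replicate 1 (0.0816), 2 (0.0737) or 3 (0.131), with the adjusted p in brackets. DESeq2 called 8 of these genes, and the term for sex left none.

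Of endothelial and pericyte genes, 3 of 11 rose and all 11 lay above 0 (median 0.61). Their summed level was 794, 699 and 879 CPM in B6J and 1294, 1139 and 1273 CPM in B6J-*Gtpbp2*-/-, without overlap, with *Vtn* as the most abundant and no marker at 0. *Cldn5*, which seals the blood-brain barrier, was at 67.8, 47.8 and 93.4 CPM in B6J and 220.2, 165 and 173 CPM in B6J-*Gtpbp2*-/- (log2 fold change 1.41, SE 0.22, adjusted p = 0.00395). *Cdh5*, a cadherin of endothelial junctions, and *Rgs5*, a pericyte gene, rose by 0.80 and 1.17 on the log2 scale (adjusted p = 0.0259 and 0.0357). *Col4a1* and *Col4a2*, the collagens of basement membranes, were the only collagens that rose (2 of 20, median 0.23, 0.01 to 0.48 with 1 library left out). *Col4a2* was at 103, 59.5 and 91.7 CPM in B6J and 237, 297 and 166 CPM in B6J-*Gtpbp2*-/- (log2 fold change 1.45, SE 0.24, adjusted p = 0.00702), and *Col4a1* rose by 1.23. The groups did not overlap for these genes. The number of vascular markers that rose was 1 without B6J replicate 1, 1 without B6J replicate 2, 1 without B6J-*Gtpbp2*-/- replicate 1 and 1 without B6J-*Gtpbp2*-/- replicate 2, and that of collagens was 1 without B6J-*Gtpbp2*-/- replicate 1. *Cdh5* was not past the threshold without B6J replicate 1 (0.0940) or 2 (0.103) or B6J-*Gtpbp2*-/- replicate 1 (0.133) or 2 (0.0831), *Rgs5* without B6J replicate 1 (0.128) or 2 (0.106) or B6J-*Gtpbp2*-/- replicate 1 (0.137) or 2 (0.106) and *Col4a1* without B6J-*Gtpbp2*-/- replicate 1 (0.0595). In the fit of all 9 footprint libraries 1 of the 11 vascular markers passed, by DESeq2 5, and with the term for sex none of them and no collagen did (medians 0.55 and 0.50).

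Of Purkinje cell markers, 1 of 16 rose and 15 of 16 lay above 0 (median 0.42, 0.21 without B6J replicate 2). Their summed level was 18221, 12092 and 24597 CPM in B6J and 27487, 27856 and 24737 CPM in B6J-*Gtpbp2*-/-. The groups did not overlap, but B6J replicate 3 lay within 1% of the lowest mutant, and the controls differed by more than the genotypes did. *Aldoc* was the most abundant, and no marker was at 0. *Gng13*, a G protein subunit, was at 775, 544 and 943 CPM in B6J and 1504, 1592 and 1629 CPM in B6J-*Gtpbp2*-/- (log2 fold change 1.06, SE 0.19, adjusted p = 0.00722), with an RNA log2 fold change of -0.29. The median RNA log2 fold change of the list was -0.36, of the opposite sign. Without B6J replicate 3, 7 Purkinje markers rose, DESeq2 called 3, and with the term for sex the list median was -0.02 and none passed.

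**Figure D3:**
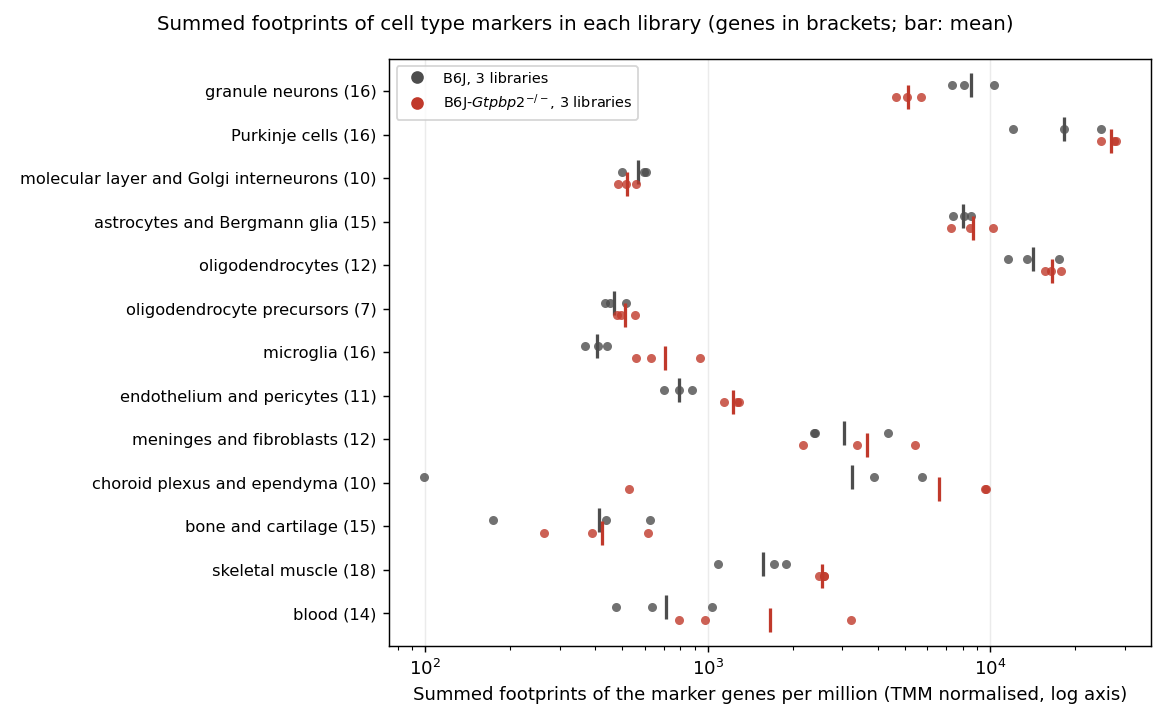
Summed footprint CPM (log axis) of the marker genes of each cell type or tissue, with a dot for each of 3 B6J (grey) and 3 B6J-*Gtpbp2*-/- (red) libraries and a bar for each mean. Granule neuron markers lie lower in each mutant (5134 against 8582 CPM on average), microglial markers higher (709 against 406 CPM), and the choroid plexus differs by library.

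Of interneuron markers none of 10 passed edgeR's test (median -0.07, -0.23 to 0.00 with 1 library left out), of oligodendrocyte markers none of 12 (median 0.18, 0.04 to 0.33 with 1 library left out) and of oligodendrocyte precursor markers none of 7 (median 0.08, -0.06 to 0.24 with 1 library left out). At an unadjusted p under 0.05 stood 1, 1 and 1 of these genes, and none passed by DESeq2 or limma-voom. *Mbp*, a myelin protein, was at 1251, 1149 and 1243 CPM in B6J and 1697, 1552 and 1235 CPM in B6J-*Gtpbp2*-/-, with overlapping groups. Of astrocyte and Bergmann glia markers, 1 of 15 rose (median 0.07, -0.07 to 0.14 with 1 library left out): *Slco1c1*, a thyroid hormone carrier, at 121, 97.7 and 119 CPM in B6J and 163, 182 and 178 CPM in B6J-*Gtpbp2*-/- (adjusted p = 0.0382), which was not past the threshold without B6J replicate 1 (0.0835) or 2 (0.144) or B6J-*Gtpbp2*-/- replicate 1 (0.117), 2 (0.131) or 3 (0.0881). DESeq2 called 3 of that list. Which cells gave the footprints of *Slco1c1* was not tested. *Slc1a3*, the glutamate transporter of Bergmann glia, was at 2136, 2067 and 2517 CPM in B6J and 2426, 2104 and 2545 CPM in B6J-*Gtpbp2*-/-, with overlapping groups.

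Markers of choroid plexus, blood and bone varied widely among libraries of the same genotype. The summed choroid plexus markers were at 5746, 3893 and 99.2 CPM in B6J and 529, 9621 and 9694 CPM in B6J-*Gtpbp2*-/-, with most of it from *Ttr*. Blood markers were at 637, 474 and 1035 CPM in B6J and 980.3, 3226 and 791 CPM in B6J-*Gtpbp2*-/-, highest in B6J-*Gtpbp2*-/- replicate 2, with the haemoglobin gene *Hbb-bs* as the most abundant. Bone and cartilage markers were at 175, 437 and 628 CPM in B6J and 391, 617 and 264 CPM in B6J-*Gtpbp2*-/-, led by *Col1a1*. Of the 10, 9 and 14 genes tested in these lists, none passed edgeR's test, with 1 blood gene at an unadjusted p under 0.05, 1 blood gene past the threshold by DESeq2 and none by limma-voom. Skeletal muscle markers were at 1712, 1089.5 and 1894 CPM in B6J and 2587, 2479 and 2585 CPM in B6J-*Gtpbp2*-/-, nearly all of it from *Pvalb*, which Purkinje cells also make, at 1585, 931 and 1797 CPM in B6J and 2464, 2295 and 2536 CPM in B6J-*Gtpbp2*-/-. Of the 18 muscle markers 8 had enough counts to be tested, and none passed edgeR's test (1 with more and 2 with fewer footprints at an unadjusted p under 0.05, 1 and 1 past the threshold by DESeq2). Without B6J replicate 3, 1 muscle marker rose and 1 fell. Of meningeal markers, 1 of 12 rose (median 0.22, 0.00 to 0.50 with 1 library left out): *Crabp2*, a retinoic acid binding protein, at 1.12, 0.663 and 3.35 CPM in B6J and 7.66, 6.03 and 8.15 CPM in B6J-*Gtpbp2*-/- (adjusted p = 0.0476), which was not past the threshold without B6J replicate 1 (0.154) or 2 (0.131) or B6J-*Gtpbp2*-/- replicate 1 (0.168), 2 (0.114) or 3 (0.120), nor by limma-voom. *Ptgds*, the most abundant meningeal marker, was at 1823, 3386 and 1707 CPM in B6J and 1503, 2278 and 4553 CPM in B6J-*Gtpbp2*-/-, with overlapping groups. The part of these tissues in the comparison was not tested.

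Of apoptosis genes and p53 targets, 1 of 19 rose (median 0.30, 0.51 without B6J replicate 3): *Cdkn1a* (p21), an inhibitor of the cell cycle, at 48.1, 28.3 and 37.5 CPM in B6J and 122, 99.4 and 214 CPM in B6J-*Gtpbp2*-/- (log2 fold change 1.94, SE 0.30, adjusted p = 0.00877). All mutants exceeded all controls. *Cdkn1a* was not past the threshold without B6J replicate 2 (0.0606), and 2 genes of the list passed without B6J replicate 3, and 2 by DESeq2. The death effectors *Bbc3* (0.98) and *Bax* (-0.19) did not pass. Of proliferation genes, 1 of 15 rose (median 0.40, 0.72 without B6J-*Gtpbp2*-/- replicate 3): *Ccnd2*, cyclin D2, at 12.4, 13.7 and 12.1 CPM in B6J and 30.2, 44.9 and 29.5 CPM in B6J-*Gtpbp2*-/- (log2 fold change 1.44, SE 0.24, adjusted p = 0.00441). Of replication-dependent histones, 1 rose and 4 of 55 fell (median -0.06), against 1.28% and 1.67% of all genes tested. *Hist1h1e*, a linker histone, had a log2 fold change of -0.72, and *Hist1h4c*, *Hist3h2a* and *Hist3h2ba* of -0.68, -0.60 and -0.76, while *Hist1h2bc* had 1.09. Most mRNAs of this family lack a poly(A) tail and the RNA libraries were poly(A) selected, so no RNA value is set beside them. By limma-voom 2 fell. The number that fell was 0 without B6J replicate 1, 2 without B6J replicate 2, 0 without B6J-*Gtpbp2*-/- replicate 1 and 0 without B6J-*Gtpbp2*-/- replicate 2. *Hist1h1e* was not past the threshold without B6J replicate 1 (0.102) or B6J-*Gtpbp2*-/- replicate 1 (0.0991) or 2 (0.126), nor were *Hist1h4c* without B6J replicate 1 (0.144) or 2 (0.161) or B6J-*Gtpbp2*-/- replicate 1 (0.210) or 2 (0.190), *Hist3h2a* without B6J replicate 1 (0.114) or 3 (0.0979) or B6J-*Gtpbp2*-/- replicate 1 (0.151), 2 (0.176) or 3 (0.102), *Hist3h2ba* without B6J replicate 1 (0.0954) or 2 (0.0670) or B6J-*Gtpbp2*-/- replicate 1 (0.137), 2 (0.0671) or 3 (0.0504) and *Hist1h2bc* without B6J replicate 2 (0.141) or 3 (0.0719) or B6J-*Gtpbp2*-/- replicate 1 (0.226), 2 (0.112) or 3 (0.0719), with the adjusted p in brackets.

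Of the receptor tyrosine kinases *Tyro3*, *Axl* and *Mertk* and their ligands, 1 fell and 1 rose among 5 (median -0.04). *Tyro3*, the receptor of this family that neurons express most, was at 137, 197 and 126 CPM in B6J and 74.3, 85.5 and 74.2 CPM in B6J-*Gtpbp2*-/- (log2 fold change -0.98, SE 0.18, adjusted p = 0.00895). *Pros1*, a ligand, was at 18.9, 21.7 and 20.6 CPM in B6J and 35.2, 30.7 and 43.8 CPM in B6J-*Gtpbp2*-/- (log2 fold change 0.85, SE 0.21, adjusted p = 0.0403). The groups did not overlap in either. *Tyro3* was not past the threshold without B6J-*Gtpbp2*-/- replicate 1 (0.0810), nor *Pros1* with any of the 6 libraries left out (adjusted p between 0.0529 and 0.156). Of axon guidance genes, 1 of 43 rose (median -0.15, 0.04 with the term for sex), against 1.28% of all genes tested. It was *Sema3c*, a secreted semaphorin, at 33.7, 17.2 and 17.2 CPM in B6J and 49.7, 43.0 and 66.9 CPM in B6J-*Gtpbp2*-/- (log2 fold change 1.24, SE 0.27, adjusted p = 0.0249). *Sema3c* was not past the threshold without B6J replicate 2 (0.121) or B6J-*Gtpbp2*-/- replicate 1 (0.0923) or 3 (0.0766).

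Of brain matrix genes, none of 15 passed edgeR's test (median -0.11, -0.23 to -0.14 with 1 library left out), with 1 with more and 2 with fewer footprints at an unadjusted p under 0.05 and none past the threshold by DESeq2 or limma-voom. *Bcan*, a proteoglycan of perineuronal nets, was at 311, 394 and 313 CPM in B6J and 253, 272 and 305 CPM in B6J-*Gtpbp2*-/-, lower in each mutant without passing (log2 fold change -0.29, adjusted p = 0.361). Immediate early genes, which neuronal activity and handling switch on, varied within genotypes. *Fos* was at 67.2, 13.9 and 228 CPM in B6J and 120.3, 171 and 108 CPM in B6J-*Gtpbp2*-/-, lowest in B6J replicate 2 and highest in B6J replicate 3. None of 20 passed edgeR's test (median 0.17, -0.19 to 0.58 with 1 library left out and -0.56 with the term for sex), with 2 with more and 2 with fewer footprints at an unadjusted p under 0.05, 1 with fewer by DESeq2 and none by limma-voom, while 3 without B6J replicate 3 passed with more and 2 without B6J replicate 1 with fewer. Of proteins encoded by the mitochondrial genome, none of 13 passed edgeR's test (median -0.09, -0.53 to 0.29 with 1 library left out), none stood at an unadjusted p under 0.05 and none passed by DESeq2 or limma-voom, while 1 without B6J-*Gtpbp2*-/- replicate 2 passed with more. *mt-Co1*, a subunit of cytochrome oxidase, was at 1006, 1518 and 4196 CPM in B6J and 2682, 879 and 2756 CPM in B6J-*Gtpbp2*-/-, with overlapping groups.

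Whether footprints moved more or less than RNA was asked in a single model over the 6 footprint and 6 RNA libraries of these genotypes, whose batch labels follow the assay, so that assay and batch cannot be told apart. Of the B6J libraries, 2 of 3 read as male for footprints and 1 of 3 for RNA, and all mutant libraries of both assays read as female, so sex is not balanced between the assays either. Across 13747 genes, which are not independent replicates, the footprint and RNA log2 fold changes had a Spearman's rho of 0.408 and a Pearson's r of 0.490, given as a description. The genotype effect differed between the assays for 2 of 13747 genes (0.0145%) by the same kind of test, edgeR's, for 163 by DESeq2, for 1 with TMM within each assay or with at least 20 counts, and for 0 with a replicate block. That block joins footprint and RNA libraries of equal number, though B6J replicate 1 read as male for footprints and as female for RNA. In the main fit 1598 genes had an unadjusted p under 0.05. *Trim66* had 14.5, 18.5 and 17.6 RNA CPM in B6J and 137, 173 and 191 in B6J-*Gtpbp2*-/-, a log2 fold change of 3.32 against 1.69 for footprints. Its RNA and its footprints were both higher in every mutant library, and the difference between the changes was -1.65 (adjusted p = 0.0460). *Cacng3*, an auxiliary subunit of AMPA receptors, had 7.02, 7.72 and 7.49 RNA CPM in B6J and 30.1, 36.2 and 38.1 in B6J-*Gtpbp2*-/-, and 16.6, 15.3 and 12.9 against 20.6, 20.8 and 25.3 CPM of footprints. The groups did not overlap in either assay, but the change in its footprints did not pass (log2 fold change 0.59, SE 0.24, adjusted p = 0.215). The RNA estimate was 2.25, and the difference between the changes was -1.67 (adjusted p = 0.0254). The number of genes was 157 without B6J footprint replicate 3, 5 without B6J-*Gtpbp2*-/- footprint replicate 3, and 0 without B6J footprint replicate 1, B6J footprint replicate 2 or B6J-*Gtpbp2*-/- footprint replicate 1.

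For most named genes the difference between the assays did not pass. *Slc7a3* had a footprint log2 fold change of 3.47 and an RNA log2 fold change of 4.77 (adjusted p of the difference 0.0831). For *Atf5* the values were 2.85 and 1.93 (adjusted p 0.239), and for *Ppp1r15a* 1.97 and 0.64 (adjusted p 0.0831), from the same test. In these 2 genes the footprint change was the larger, without passing. For *Asns* the values were 1.35 and 1.99, for *Yars* 1.16 and 1.24, and for *Slc17a7* -1.50 and -0.66.

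**Figure D4:**
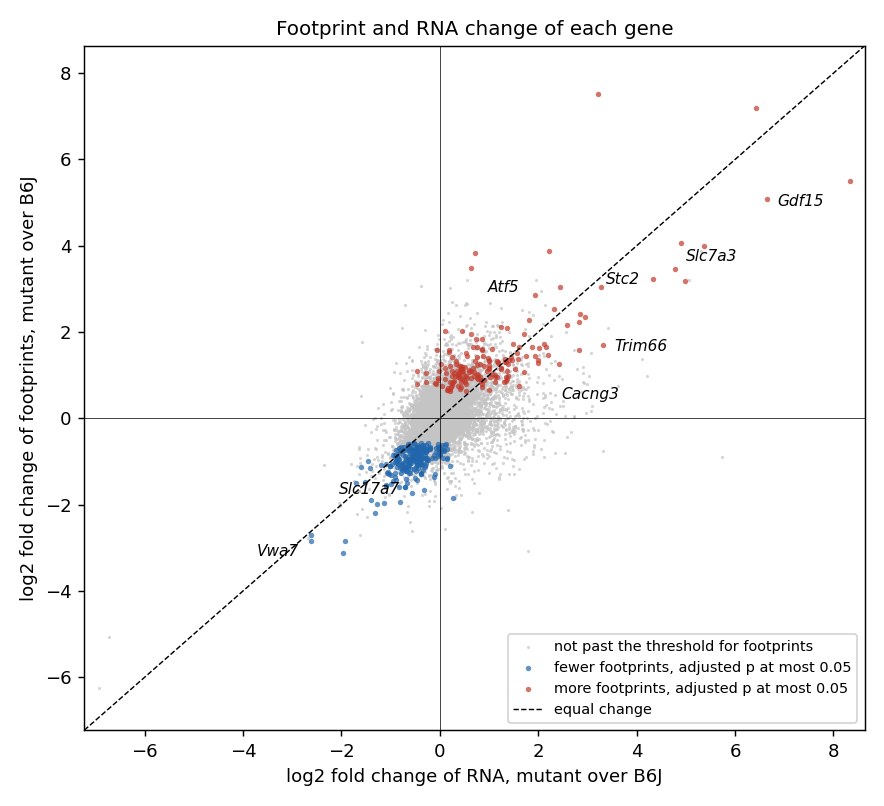
Log2 fold change of footprints against that of RNA, B6J-*Gtpbp2*-/- over B6J, for 13747 genes, with the 406 genes past the threshold for footprints in colour where RNA was counted and the line of equal change dashed. *Slc7a3* lies at 4.77 for RNA and 3.47 for footprints, and *Trim66* at 3.32 and 1.69.

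AGA is the codon read by the tRNA that the B6J strain lacks in part. Counts per gene hold no position, so only the number of AGA codons in a coding sequence could be set beside its change. The median log2 fold change was -0.08 for the 1160 genes without an AGA codon and 0.14 for the 977 genes with at least 21. Genes with fewer footprints in B6J-*Gtpbp2*-/- made up 2.93% of the first group and 0.409% of the second, and genes with more 1.55% and 1.54%. Coding sequences with more AGA codons are longer, with a median of 219 codons in the first group and 1515 in the second. Across genes, Spearman's rho between AGA codons and log2 fold change was 0.132, and rho was 0.122 for AGA codons per 100 codons and 0.0617 for the number of codons. Against the mean of the controls, rho in B6J-*Gtpbp2*-/- replicates 1, 2 and 3 was 0.205, 0.116 and -0.00796 for AGA codons, 0.199, -0.0175 and 0.111 for AGA codons per 100 codons, and 0.0902, 0.192 and -0.139 for the number of codons. The libraries thus differed in all 3 measures, and a part of codon content apart from length was not tested. The median was 4 AGA codons for the 176 genes with more footprints, 3 for the 230 with fewer and 5 for all genes tested. *Slc7a3* has 6 AGA codons among 618, and *Asns* 7 among 561.

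Genes of the integrated stress response often carry a C/EBP-ATF response element, whose core was searched as TGATGNAA on both strands in RefSeq promoters (GRCm38.p6, 250 bases before to 50 after the start of each gene). It occurred in 20 of 130 genes with more footprints that have a promoter in the table (15.4%), in 5 of 172 with fewer (2.91%), in 295 of 10782 genes tested (2.74%) and in 1304 of all 32851 promoters (3.97%). Counted by gene, it occurred in 1219 of the 27025 genes of the table (4.51%). Among named genes it occurred in 11 of 44 that rose (25%) and 2 of 24 that fell (8.33%), and many of these genes were named from the gene lists. Of the 15 genes with the smallest p and more footprints it occurred in 2 of 13 that have a promoter (15.4%). For the 15 with fewer footprints it was 0 of 13. The promoters of 6 named genes that rose are shown because they hold these letters, in capitals, with TGATG in the forward form and CATCA in the reverse form. They belong to *Chac1* (chr2:119350992-119351291, plus strand), *Asns* (chr6:7693160-7693459, minus strand), *Yars* (chr4:129189653-129189952, plus strand), *Iars* (chr13:49681880-49682179, plus strand), *Nupr1* (chr7:126625421-126625720, minus strand) and *Pycr1* (chr11:120643699-120643998, minus strand). Each is written 5′ to 3′ along its gene, and a match is a description of the sequence.
Chac1: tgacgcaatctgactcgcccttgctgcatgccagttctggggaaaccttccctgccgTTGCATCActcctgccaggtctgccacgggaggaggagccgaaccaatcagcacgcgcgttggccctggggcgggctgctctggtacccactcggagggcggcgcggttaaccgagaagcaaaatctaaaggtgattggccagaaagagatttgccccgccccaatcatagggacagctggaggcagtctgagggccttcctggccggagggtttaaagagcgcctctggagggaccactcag
Asns: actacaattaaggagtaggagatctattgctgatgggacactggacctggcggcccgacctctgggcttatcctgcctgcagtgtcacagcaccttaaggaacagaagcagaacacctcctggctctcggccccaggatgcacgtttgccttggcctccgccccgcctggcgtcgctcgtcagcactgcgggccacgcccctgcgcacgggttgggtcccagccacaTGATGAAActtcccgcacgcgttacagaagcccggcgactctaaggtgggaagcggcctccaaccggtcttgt
Yars: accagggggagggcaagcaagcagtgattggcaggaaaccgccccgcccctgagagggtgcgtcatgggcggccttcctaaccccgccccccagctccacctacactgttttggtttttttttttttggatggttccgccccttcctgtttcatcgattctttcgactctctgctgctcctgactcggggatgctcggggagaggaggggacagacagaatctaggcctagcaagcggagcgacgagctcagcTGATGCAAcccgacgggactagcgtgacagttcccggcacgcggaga
Iars: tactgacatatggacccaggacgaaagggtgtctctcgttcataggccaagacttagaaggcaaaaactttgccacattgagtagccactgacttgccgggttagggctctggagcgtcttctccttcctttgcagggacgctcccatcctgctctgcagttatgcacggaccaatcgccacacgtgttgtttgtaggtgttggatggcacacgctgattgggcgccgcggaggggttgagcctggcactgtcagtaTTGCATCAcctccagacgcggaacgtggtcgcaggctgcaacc
Nupr1: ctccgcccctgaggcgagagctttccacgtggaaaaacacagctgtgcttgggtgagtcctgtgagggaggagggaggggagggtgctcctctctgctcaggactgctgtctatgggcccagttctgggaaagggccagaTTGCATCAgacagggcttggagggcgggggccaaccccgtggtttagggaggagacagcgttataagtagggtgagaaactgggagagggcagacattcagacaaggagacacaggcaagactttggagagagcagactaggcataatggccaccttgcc
Pycr1: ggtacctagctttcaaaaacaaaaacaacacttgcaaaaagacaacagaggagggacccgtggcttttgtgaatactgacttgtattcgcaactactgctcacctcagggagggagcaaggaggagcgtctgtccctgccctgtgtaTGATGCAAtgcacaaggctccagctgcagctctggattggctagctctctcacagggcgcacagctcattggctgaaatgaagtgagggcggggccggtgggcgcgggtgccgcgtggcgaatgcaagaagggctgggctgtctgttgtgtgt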

How the data were processed

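The authors' deposited tables give each footprint library as a raw count per gene over coding sequences and each RNA library as an estimated count per transcript, which was summed over the transcripts of a gene and rounded. By the submitters' processing notes, reads were handled with Bowtie2 2.2.3, HISAT2 2.1.0, featureCounts and, for RNA, kallisto 0.42.4, on mm10. The genotypes, 3 footprint libraries each, were compared with edgeR 4.0.16 in R 4.3.3: TMM scaling, genes counted 5 times or more in 3 or more of the 6 libraries, the quasi-likelihood F test, and Benjamini-Hochberg adjusted p over all genes tested, with a threshold of 0.05. The SE is the absolute log2 fold change over the square root of F. The difference between assays is the genotype by assay term over 12 libraries. Depth is given with the libraries. Because each genotype has 3 libraries, small changes may not pass. Ratios of counts for genes with few control footprints carry counting error only.

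Gene positions and codons are from Gencode M21 (GRCm38), and promoters from RefSeq. Named genes were taken from *Gtpbp2* and *Gtpbp1*; the 15 genes with the smallest p in each direction; list members past the threshold, up to 6, or else the 2 most abundant; and of the markers, the 3 most abundant and up to 4 past the threshold. Where genes share a symbol, the counted gene with the longest coding sequence was used. Other list members in the text were chosen after their values were seen. The members and the lists were chosen with earlier results of these data known. Alternatives were DESeq2 1.42.0, limma-voom (3.58.1), other scalings and filters, all 9 footprint libraries, a replicate block, each library left out, and a term for sex, which was added after seeing the data. Sex was read from *Ddx3y*. The code was tested on simulated data. Tables and figures were made in Python 3.11.15 with pandas 2.3.3, numpy 2.4.6, scipy 1.17.1 and matplotlib 3.10.9. Libraries of mice without GTPBP1 entered only the joint fit.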

Additional observations from a re-analysis of the deposited data

Results flagged for a closer look

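For 2 genes the difference between the footprint change and the RNA change passed the threshold across all genes, which flagged them. On the log2 scale it was -1.67 for *Cacng3* and -1.65 for *Trim66*. In both genes the RNA estimate was the higher of the pair, and the footprint change of *Cacng3* did not pass by itself (adjusted p = 0.215). Neither gene was past the threshold with a replicate block or without B6J footprint replicate 1, B6J footprint replicate 2 or B6J-*Gtpbp2*-/- footprint replicate 1. The block joins footprint and RNA libraries of equal number, though B6J replicate 1 read as male for footprints and as female for RNA. The cause of the difference in these genes was not tested.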

How the results depend on the processing

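The size of the footprint comparison depended on the libraries and on the test. Of the list medians, those of Purkinje cell markers (0.42 to -0.02) and immediate early genes (0.17 to -0.56) were among those that changed sign with the term for sex. DESeq2 gave 655 genes (300 with more and 355 with fewer footprints), all 9 footprint libraries in a joint fit 268 (117 and 151), and the term for sex 45 (25 and 20), with 27 of the 91 named genes past the threshold. Within 1.5-fold of the main count were limma-voom (345), upper quartile scaling (367), RLE scaling (389), no filter (590), filterByExpr (394) and a filter of at least 20 counts (386). The counts with more and fewer footprints were 101 and 177 without B6J replicate 1, 96 and 90 without B6J replicate 2, 297 and 322 without B6J replicate 3, 55 and 51 without B6J-*Gtpbp2*-/- replicate 1, 83 and 68 without B6J-*Gtpbp2*-/- replicate 2, and 155 and 138 without B6J-*Gtpbp2*-/- replicate 3, and the totals ran from 106 to 619. The cause was not tested. The labels number the replicates without saying that equal numbers pair, and the deviations of libraries with the same number had r = -0.103, 0.112 and 0.101, against -0.200 to 0.0907 for other numbers, so no block was used. With a replicate block the count was 510. For the difference between footprints and RNA, DESeq2 gave 163 genes, TMM within each assay 1, at least 20 counts 1, a replicate block 0, and leaving out libraries 0 to 157.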

Other observations

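Gene families that were picked out after their values had been seen are given as values only. Tubulins, the subunits of microtubules, had fewer footprints past the threshold for 6 of 12 genes (median log2 fold change -0.59, against 0.01 over all genes tested), with a median RNA log2 fold change of -0.43. *Tuba1a* was at 51.0, 53.9 and 83.5 CPM in B6J and 31.3, 34.5 and 23.9 CPM in B6J-*Gtpbp2*-/- (log2 fold change -1.09), and *Tuba4a* and *Tubb4a* had log2 fold changes of -0.92 and -0.85. Of Shisa genes, 3 of 8 had fewer footprints past the threshold: *Shisa4* (-0.70), *Shisa8* (-1.13) and *Shisa9* (-0.97). Of synaptotagmins, it was 4 of 16 (*Syt1*, *Syt3*, *Syt12* and *Syt13*, median of all 16 -0.30). A wider set of vascular genes had more footprints past the threshold for 13 of 28, and all 28 lay above 0 (median 0.90). The number was 1 without B6J replicate 1, 1 without B6J replicate 2, 0 without B6J-*Gtpbp2*-/- replicate 1, 0 without B6J-*Gtpbp2*-/- replicate 2, 7 without B6J-*Gtpbp2*-/- replicate 3 and 0 with the term for sex, in which 3 tubulins, 0 Shisa genes and 0 synaptotagmins passed. With libraries left out, these were not past the threshold: *Tuba1a* without B6J-*Gtpbp2*-/- replicate 1 (0.0825), 2 (0.0504) or 3 (0.0583), *Tuba1b* without B6J replicate 1 (0.153) or 2 (0.113) or B6J-*Gtpbp2*-/- replicate 1 (0.174), 2 (0.124) or 3 (0.121), *Tuba4a* without B6J-*Gtpbp2*-/- replicate 1 (0.0511) or 2 (0.0568), *Tubb4a* without B6J replicate 2 (0.0541) or B6J-*Gtpbp2*-/- replicate 1 (0.0850), 2 (0.105) or 3 (0.0557), *Tubb4b* without B6J replicate 2 (0.153) or B6J-*Gtpbp2*-/- replicate 1 (0.174), 2 (0.0659) or 3 (0.116), *Shisa4* with any of the 6 libraries left out (adjusted p between 0.0635 and 0.234), *Shisa8* without B6J-*Gtpbp2*-/- replicate 1 (0.0698), *Shisa9* without B6J replicate 2 (0.146) or B6J-*Gtpbp2*-/- replicate 1 (0.132) or 2 (0.156), *Syt3* without B6J-*Gtpbp2*-/- replicate 1 (0.0810) or 2 (0.0509), *Syt12* without B6J replicate 2 (0.195) or 3 (0.0709) or B6J-*Gtpbp2*-/- replicate 1 (0.127), 2 (0.161) or 3 (0.144) and *Syt13* without B6J replicate 2 (0.0927) or B6J-*Gtpbp2*-/- replicate 1 (0.148), 2 (0.0592) or 3 (0.0821), with the adjusted p in brackets.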
